A study of Rattus norvegicus with 8 samples.

Results

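Eph receptors and ephrins, a receptor tyrosine kinase family and its cell-surface ligands, were followed by RNA-seq in primary rat nucleus pulposus (NP) cells after knockdown of Sirt6. The 10 genes are 3 A-class receptors (Epha2, Epha4, Epha7), 3 B-class receptors (Ephb2, Ephb3, Ephb4), 2 A-class ephrins (Efna1, Efna5) and 2 B-class ephrins (Efnb1, Efnb2). They were taken by gene symbol from a count table of 32975 genes and spike-ins, and all 10 passed the filter on low counts that left 13250 genes for testing. These 10 and the other gene lists below were chosen with earlier results of these data known. Their called shares beside those of all genes are therefore descriptive only. NP cells, the cells of the gelatinous core of the intervertebral disc, were isolated from adult Sprague Dawley rats and transduced with lentivirus. The Sirt6-Ctrl group (libraries S1 to S4) received a control short hairpin RNA, ShCtrl, and the Sirt6-KD group (S5 to S8) received a mixture of 3 ShSirt6 clones. Both groups thus carried a lentiviral hairpin vector and were exposed to polybrene and puromycin. Each group had 4 libraries, described as independent experiments on cells of 4 rats, and the labels do not say which libraries share a rat.

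Eph receptors sit in the plasma membrane and bind ephrins on a neighbouring cell, so most of their signalling takes place at cell contacts. A-class ephrins are held by a lipid anchor and B-class ephrins span the membrane, and both can signal back into the cell that carries them. Class A receptors mostly bind class A ephrins and class B receptors mostly bind class B ephrins, with Epha4 a receptor for both, and the downstream effectors act on the actin cytoskeleton, adhesion and cell sorting.

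3 of the 10 genes passed the test and 7 did not. Epha2, the receptor of Efna1, rose to 3.08 times its Sirt6-Ctrl level in Sirt6-KD cells. Efnb2, the transmembrane ligand of Ephb4, rose to 1.85 times. Epha4 fell to 0.283 times, from a low level. A gene was called when its adjusted p was under 0.05 and its fold change over 1.5, by edgeR's quasi-likelihood test with Benjamini-Hochberg adjustment over all features tested. By that rule 2 of the 10 members were called higher, beside 8.02% of all genes tested, and 1 was called lower, beside 10.7%. The called fraction of this short list thus did not stand far from the 18.7% called in either direction among all genes. The members' log2 fold changes ran from -1.82 to 1.62 with a median of 0.01, 5 positive and 5 negative, and the median over all genes was -0.02. Over all genes the number called higher, 1063, became 552 without S1, 1699 without S3 and 445 to 491 without S5, S6 or S7.

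The sequence upstream of the gene is shown for Epha2 and Efnb2, the 2 members that rose, and for Ephb4, the main receptor of Efnb2, which was not called. Each is the 250 bases before the RefSeq start of the gene in build GRCr8, written 5′ to 3′ on the gene's own strand, which is plus for Epha2 and Efnb2 and minus for Ephb4. They lie at chr5:158888379-158888628 for Epha2, chr16:87484965-87485214 for Efnb2 and chr12:24988389-24988638 for Ephb4. The count table was made on another build, Rnor_6.0. Capitals mark matches, on either strand, to the motifs searched: AP-1 (TGANTCA), the GC box (GGGCGG), the TATA box (TATAAA), TEAD (GGAATG), the E-box (CACGTG) and the CRE half-site (TGACGT).
Epha2: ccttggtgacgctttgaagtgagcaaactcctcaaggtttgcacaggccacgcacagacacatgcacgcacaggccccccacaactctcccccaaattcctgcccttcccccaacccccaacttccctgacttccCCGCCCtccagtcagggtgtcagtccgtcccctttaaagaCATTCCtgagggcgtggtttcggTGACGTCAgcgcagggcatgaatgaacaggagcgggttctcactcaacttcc
Efnb2: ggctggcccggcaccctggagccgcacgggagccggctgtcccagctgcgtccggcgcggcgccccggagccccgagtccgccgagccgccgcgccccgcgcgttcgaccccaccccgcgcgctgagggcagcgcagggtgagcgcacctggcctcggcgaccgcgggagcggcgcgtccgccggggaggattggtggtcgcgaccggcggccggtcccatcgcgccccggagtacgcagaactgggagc
Ephb4: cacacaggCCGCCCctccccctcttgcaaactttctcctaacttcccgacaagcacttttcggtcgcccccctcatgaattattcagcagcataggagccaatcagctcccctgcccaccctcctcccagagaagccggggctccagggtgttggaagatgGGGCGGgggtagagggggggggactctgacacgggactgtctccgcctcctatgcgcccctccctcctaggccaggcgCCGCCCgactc

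The Epha2 window held 1 GC box, 1 TEAD match and a pair of overlapping CRE half-sites, 1 on each strand, that together spelled the full palindrome between 52 and 45 bases before the start. The CRE half-site was added to the search after the Epha2 sequence had been seen. It occurred in 6.95% of 33469 promoter windows of the same length, the TEAD motif in 12.1% and the GC box in 30.5%. The Ephb4 window held 3 GC boxes and no other match. The Efnb2 window, at 80.4% G and C with 43 CpG dinucleotides, held no match to any of the 6 motifs.

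Promoter windows were found for 9 of the 10 members, and Epha4 was not matched. The GC box was present in 5 of these 9 windows (Epha2, Epha7, Ephb3, Ephb4 and Efna1), and Epha2 alone among them held the TEAD motif and the CRE half-site. AP-1, which matched 6.34% of all windows, the TATA box (12.9%) and the E-box (5.59%) matched none of the 9. The G and C content of the 9 windows ranged from 58.4% to 80.4%, above the median of 51.2% over all windows, and their CpG dinucleotides from 10 to 43, against a median of 5. These medians and the motif shares cover all RefSeq windows and were not computed over the genes tested here. They therefore do not set the members apart from other expressed genes. Epha2 had the lowest CpG count of the 9 and Efnb2 the highest, so the 2 genes that rose were at opposite ends. A motif match describes letters in the sequence and no binding was measured here.

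Sirt6-Ctrl libraries held 31994838 to 40124813 counts, and Sirt6-KD libraries 32382957 to 36600792. Sirt6, the knockdown target, fell from 52.7 ± 3.78 to 20.6 ± 1.07 CPM (read counts scaled to a common library size with edgeR's TMM factors; mean ± SD, n = 4 each), a log2 fold change of -1.35 (SE 0.13, edgeR adjusted p = 0.000713), and no Sirt6-KD library reached the lowest Sirt6-Ctrl library. Synthetic spike-in RNA made up 2.97% to 9.80% of the Sirt6-Ctrl counts and 2.15% to 2.47% of the Sirt6-KD counts, with S1 (6.27%) and S2 (9.80%) apart from the rest. Of 12 NP markers listed, 8 had a named row and all 8 were detected. Slc2a1, a glucose transporter, was called higher, and Car3 and Krt8 were called lower. The summed level of the 8 was 781.7 to 2307 CPM in Sirt6-Ctrl against 2859 to 3825 CPM in Sirt6-KD, most of it Slc2a1. The calls were 12.5% of the 8 higher and 25% lower, beside 8.02% and 10.7% of all genes. The log2 fold change was negative for 6 of the 8, with a median of -0.52, and 2 of these 6 were called. Among the rest of the 6, Pax1 was at -0.43 (edgeR adjusted p = 0.0459, fold change under 1.5, groups apart) and Cd24 at -0.98 (edgeR adjusted p = 0.0537). Car12 went the other way, at 1.53 (edgeR adjusted p = 0.0776, groups overlapping). Krt18, Krt19, T and Col2a1, defining NP markers, were not analysed here. Of 7 fibroblast markers, 6 had a row, and their sum, mostly Col1a1, was 13680 to 25960 CPM in Sirt6-Ctrl against 8340 to 17880 CPM in Sirt6-KD. Scx, a tendon transcription factor, was the 1 called, lower (16.7% of the 6, beside 10.7% of all genes). The log2 fold change was negative for 5 of these 6, and Pdgfra was positive at 0.82 (edgeR adjusted p = 0.167). Col1a2, among the 5, was at 0.891 to 2.59 CPM in Sirt6-Ctrl and 1.45 to 1.94 CPM in Sirt6-KD, far under Col1a1. Its log2 fold change was -0.09 (edgeR adjusted p = 0.931), and the reason for its low level was not tested. The 3 of 7 immune markers with a row summed to 11.9 to 29.7 CPM and 15.0 to 23.9 CPM. The part of these shifts in the results on the Eph and ephrin genes was not tested, and in bulk RNA a smaller share of one cell type cannot be told apart from less RNA per cell.

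**Figure D1:**
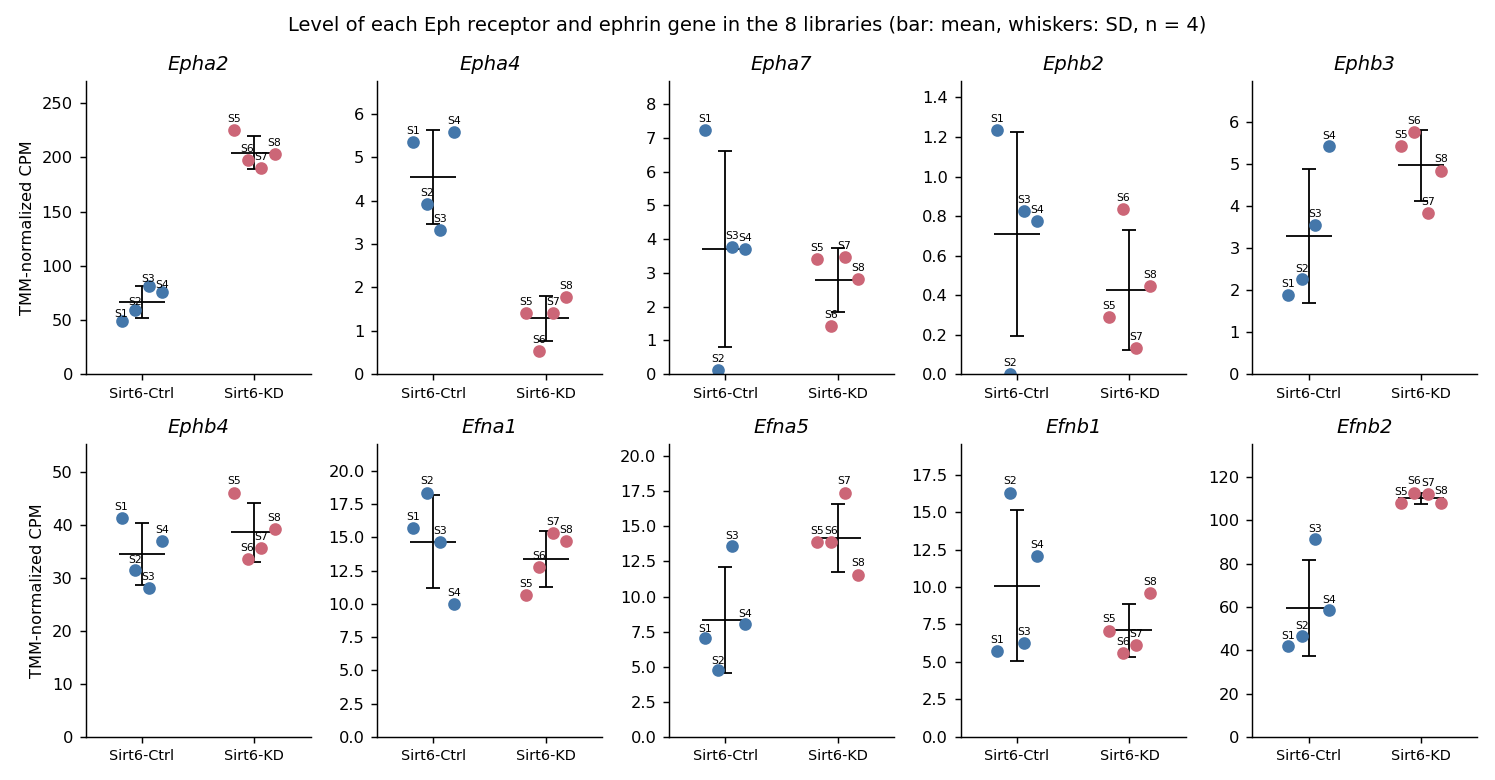
TMM-normalized CPM of the 10 Eph and ephrin genes in the 4 Sirt6-Ctrl (S1 to S4) and 4 Sirt6-KD (S5 to S8) libraries, each point a library, with the mean as a bar and the SD as whiskers; every panel has its own linear axis from 0. The groups are apart for Epha2, Epha4 and Efnb2 and overlap in the other 7 panels.

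Epha2 is an A-class receptor of epithelial and mesenchymal cells that binds Efna1 and can also signal without ligand. It was measured at 49.1, 59.5, 80.9 and 75.6 CPM in S1 to S4 and at 225, 198, 190 and 203 CPM in S5 to S8. S3 and S4 were the higher Sirt6-Ctrl libraries, yet every Sirt6-KD library stood far above them and the groups did not overlap. The mean rose from 66.3 ± 14.6 to 204 ± 15.2 CPM (SD, n = 4), a log2 fold change of 1.62 (SE 0.17, 95% interval 1.25 to 1.99, edgeR adjusted p = 0.000778). Raw counts were 1709 to 3118 in Sirt6-Ctrl and 6624 to 7784 in Sirt6-KD, so counting error was small beside the spread between libraries. Of all genes tested, 96.1% had a smaller log2 fold change than Epha2. The call held in each fit with 1 library left out, where the log2 fold change lay between 1.53 and 1.73, and without S1 and S2 together (1.39, adjusted p = 0.00105 by edgeR). It was lost with scaling by the spike-ins (2.47, adjusted p = 0.0711 by edgeR, 1.52 above the median of all genes in that fit).

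Epha4, a receptor with a broad ligand range and known from axon guidance, went the other way. It was measured at 5.34, 3.93, 3.33 and 5.58 CPM in S1 to S4 and at 1.42, 0.538, 1.41 and 1.78 CPM in S5 to S8. Again the groups did not overlap, with S6 the lowest of all. The mean fell from 4.54 ± 1.09 to 1.29 ± 0.527 CPM (SD, n = 4), a log2 fold change of -1.82 (SE 0.49, 95% interval -2.91 to -0.73, edgeR adjusted p = 0.0265). Behind these levels stood 113 to 230 counts in Sirt6-Ctrl and 18 to 60 in Sirt6-KD. The change kept its direction in each alternative, but the call was lost without S1, S4, S5, S6 or S7, where edgeR's adjusted p lay between 0.056 and 0.0715, and without S1 and S2 together (adjusted p = 0.0518). Long noncoding RNAs overlap Epha4, Epha7, Ephb2 and Efna5 in RefSeq, and the strand setting of the read counting was not given in the sources used here, so reads of the overlaps cannot be assigned.

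Epha7, an A-class receptor of the developing nervous system, varied widely within Sirt6-Ctrl. It was measured at 7.24, 0.124, 3.77 and 3.71 CPM in S1 to S4 and at 3.42, 1.43, 3.47 and 2.81 CPM in S5 to S8. S1 was the highest and S2, with 4 counts, the lowest of the 8 libraries, so the Sirt6-KD range lay inside the Sirt6-Ctrl range. The log2 fold change was -0.42 (SE 0.82, 95% interval -2.23 to 1.40, edgeR adjusted p = 0.753). An interval this wide holds sizeable changes of either sign.

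The B-class receptors showed no call. Ephb2, which guides cell position in the gut epithelium and acts at synapses, was near the detection floor at 1.24, 0, 0.824 and 0.776 CPM in S1 to S4 and 0.289, 0.836, 0.130 and 0.444 CPM in S5 to S8, or 0 to 43 counts per library. The count of 0 in S2 allows a level of up to 0.0928 CPM, which is 3 counts in that library. Its log2 fold change was -0.74 (SE 1.15, 95% interval -3.27 to 1.80, edgeR adjusted p = 0.685), and the groups overlapped. Ephb3, which acts with Ephb2 in the gut epithelium, was measured at 1.90, 2.26, 3.56 and 5.43 CPM in Sirt6-Ctrl against 5.44, 5.77, 3.83 and 4.85 CPM in Sirt6-KD. S4 alone of the Sirt6-Ctrl libraries reached the Sirt6-KD range. The Ephb3 log2 fold change was 0.60 (SE 0.42, 95% interval -0.34 to 1.53, edgeR adjusted p = 0.34).

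Ephb4, the venous receptor of Efnb2, was measured at 41.3, 31.5, 28.2 and 37.0 CPM in S1 to S4 and at 46.1, 33.5, 35.6 and 39.2 CPM in S5 to S8. The groups overlapped, and the means were 34.5 ± 5.83 and 38.6 ± 5.53 CPM (SD, n = 4). The log2 fold change was 0.16 (SE 0.17, edgeR adjusted p = 0.539), and its 95% interval of -0.22 to 0.54 was the narrowest of the 7 members not called. Ephb4 overlaps the gene Zan in RefSeq, and without a known strand setting reads of the overlap cannot be assigned between them.

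Among the ligands, the A-class ephrins were not called. Efna1, the preferred ligand of Epha2, was measured at 15.7, 18.4, 14.7 and 9.96 CPM in S1 to S4 and at 10.7, 12.8, 15.3 and 14.7 CPM in S5 to S8. All Sirt6-KD values lay between the lowest and the highest Sirt6-Ctrl value. The log2 fold change was -0.13 (SE 0.24, 95% interval -0.67 to 0.40, edgeR adjusted p = 0.727), and it turned to 0.01 without S2 and to 0.13 without S1 and S2. Efna5, a repellent ligand for growing axons, was measured at 7.01, 4.73, 13.6 and 8.02 CPM in S1 to S4 and at 13.9, 13.9, 17.4 and 11.6 CPM in S5 to S8. Only S3 of the Sirt6-Ctrl libraries reached the Sirt6-KD range. Its log2 fold change of 0.76 (SE 0.32, 95% interval 0.05 to 1.48) missed the threshold at an edgeR adjusted p = 0.114, and without S3 it was 1.10 with an adjusted p = 0.0162.

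Efnb1, the X-linked B-class ephrin of craniofacial development, was measured at 5.72, 16.3, 6.27 and 12.1 CPM in S1 to S4 and at 7.09, 5.59, 6.15 and 9.59 CPM in S5 to S8. S2 and S4 stood above every Sirt6-KD library, while S1 and S3 lay among them. The log2 fold change was -0.51 (SE 0.38, 95% interval -1.34 to 0.33, edgeR adjusted p = 0.365).

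Efnb2, the B-class ephrin of arterial endothelium and a ligand of Ephb4, was measured at 42.0, 46.5, 91.3 and 58.5 CPM in S1 to S4 and at 108, 113, 112 and 108 CPM in S5 to S8. The groups did not overlap, although S3 was well above the other Sirt6-Ctrl libraries. The mean rose from 59.6 ± 22.2 to 110.2 ± 2.55 CPM (SD, n = 4), a log2 fold change of 0.89 (SE 0.22, 95% interval 0.40 to 1.38, edgeR adjusted p = 0.0193). The call depended on single libraries, being lost without S1 (0.77, adjusted p = 0.0562 by edgeR), S5, S6 or S7, and without S1 and S2 together, where the log2 fold change was 0.57 (adjusted p = 0.0625). Of 9 endothelial markers listed, only Esam and Tek had a named row. These 2 summed to 0 to 1.84 CPM in Sirt6-Ctrl against 0.299 to 2.37 CPM in Sirt6-KD. The other 7 were not analysed here, so a share of endothelial cells was not tested.

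**Figure D2:**
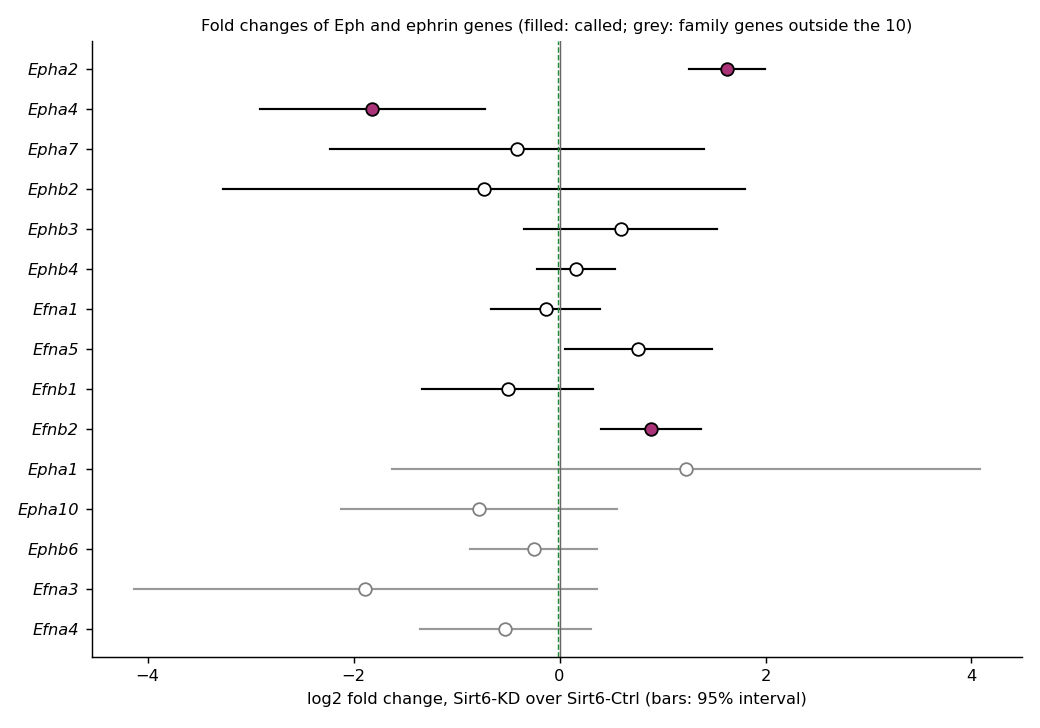
Log2 fold change (Sirt6-KD over Sirt6-Ctrl) of the 10 members and, in grey, of 5 further family genes tested; bars are 95% intervals, filled points were called, and the dashed line is the median of all genes (-0.02). Epha2 and Efnb2 lie to the right of 0 and Epha4 to the left with intervals clear of 0. The interval of Efna5, which was not called, is also clear of 0 (0.05 to 1.48). Among the 10 members the intervals of Ephb2 and Epha7 are the widest.

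The members thus differed in how far the libraries spread. In Sirt6-Ctrl the coefficient of variation ran from 16.9% for Ephb4 to 78.3% for Epha7. In Sirt6-KD it ran from 2.31% for Efnb2 to 71.2% for Ephb2. It was lower in Sirt6-KD for 9 of the 10 members, Epha4 being the exception, beside 85.6% of all genes tested. S3 was the Sirt6-Ctrl library closest to the Sirt6-KD group for each of the 3 called genes, being the highest of the 4 for Epha2 and Efnb2 and the lowest for Epha4.

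All 3 called members had groups that did not overlap, as had 30.4% of all genes tested (14.8% with Sirt6-KD higher and 15.6% with Sirt6-KD lower). The other 7 members overlapped. DESeq2's Wald test and limma-voom called the same 3 genes as edgeR.

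Scaling was the choice that moved all members together. When each library was scaled by its summed spike-in counts in place of the TMM factors, the centre of the whole table, the median over all genes, moved from -0.02 to 0.94 on the log2 scale, and no member was called. Relative to that median the log2 fold change of Epha2 was 1.52, that of Efnb2 0.74 and that of Epha4 -1.79. On the spike-in scale itself Epha4 was at -0.84, with an edgeR adjusted p = 0.409.

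**Figure D3:**
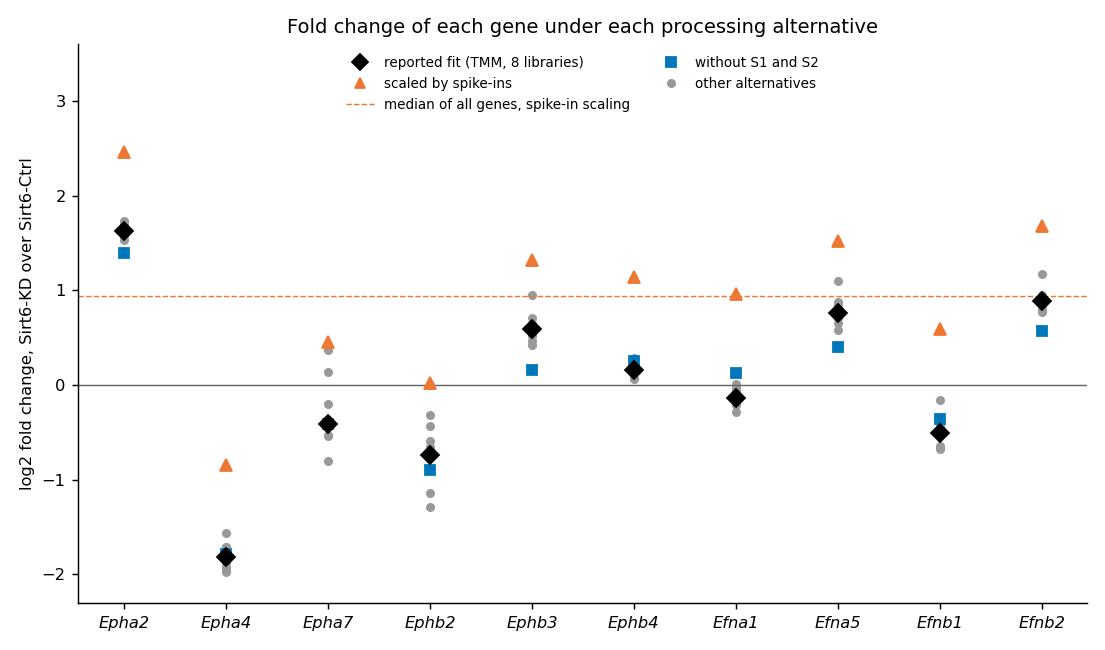
Log2 fold change (Sirt6-KD over Sirt6-Ctrl) of each of the 10 genes in the reported fit (black diamonds) and under 20 processing alternatives, with spike-in scaling (orange triangles) and the fit without S1 and S2 (blue squares) marked. Spike-in scaling shifts every gene upward with the median of all genes (dashed, 0.94), and over all 20 alternatives Epha2 lies between 1.39 and 2.47 and Epha4 between -1.98 and -0.84.

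A receptor's counts over those of a ligand within the same library do not depend on how the libraries are scaled. The log2 ratio of Epha2 counts to Efna1 counts was 1.65, 1.70, 2.46 and 2.92 in S1 to S4 and 4.40, 3.96, 3.63 and 3.79 in S5 to S8. The groups did not overlap, and the mean ratio went from 2.18 ± 0.62 to 3.94 ± 0.33 (SD, n = 4), a difference of 1.76. The log2 ratio of Ephb4 to Efnb2 counts was -0.03, -0.56, -1.70 and -0.66 in S1 to S4 and -1.23, -1.75, -1.66 and -1.47 in S5 to S8. Here S3 lay among the Sirt6-KD libraries, and the means were -0.74 ± 0.70 and -1.53 ± 0.23 (SD, n = 4), a difference of -0.79. So the first pair shifted toward the receptor in all 4 Sirt6-KD libraries, and in the second pair 3 of the 4 Sirt6-Ctrl libraries lay above every Sirt6-KD library. These ratios compare the same 2 genes between libraries, are not corrected for transcript length and were not tested. No share of pairs without overlap was computed over other genes. Efna1 was at a log2 fold change of -0.13, so the first ratio mostly repeats the rise of Epha2 (1.62). Only 1 ligand was taken per receptor, and Efna5, the other A-class ephrin among the members, was at 0.76.

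**Figure D4:**
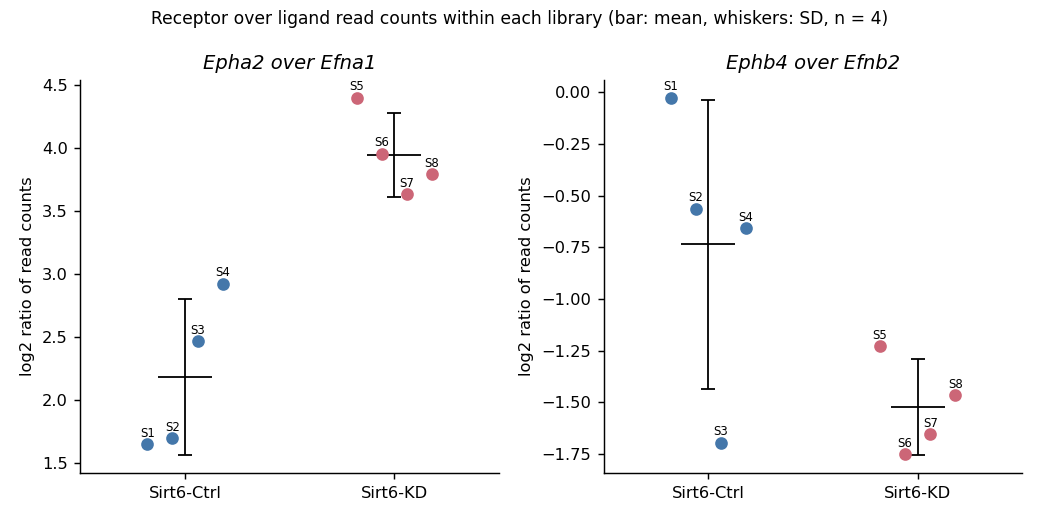
Log2 ratio of receptor to ligand read counts in each library for Epha2 over Efna1 (left) and Ephb4 over Efnb2 (right), with the mean as a bar and the SD as whiskers, n = 4; the vertical axes differ and do not start at 0. The Epha2 to Efna1 ratio is apart between the groups, and the Ephb4 to Efnb2 ratio of S3 lies inside the Sirt6-KD range.

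The genes with the pattern most like Epha2 over the 8 libraries, by the mean absolute difference of log2 CPM after each gene was centred on its own mean, were Tns3 (0.13), Ssh1 (0.14) and Myof (0.15), against a median of 0.90 over all genes. Among those most like Epha4 were Acat2 (0.26) and Hoxb6 (0.26), against a median of 1.01. These genes were picked for the smallest difference among all genes tested, so their place under the median follows from the choice. The log2 fold changes of Tns3, Ssh1 and Myof were 1.48, 1.36 and 1.32, and those of Acat2 and Hoxb6 were both -1.49.

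Of 12 further Eph and ephrin genes, 7 had a named row and 5 were tested. None was called by edgeR or limma-voom, none of the 5 had an unadjusted p under 0.05 in edgeR, and DESeq2 called 1, Efnb3. Epha3, Epha5, Epha6, Epha8 and Ephb1 were not analysed here. Ephb6, a receptor whose kinase domain is inactive, had the narrowest interval, with 11.01 ± 3.01 CPM in Sirt6-Ctrl against 9.24 ± 2.20 CPM in Sirt6-KD (SD, n = 4) and a log2 fold change of -0.25 (SE 0.28, 95% interval -0.87 to 0.36). Efna4, an A-class ligand, went from 8.36 ± 3.99 to 5.79 ± 1.26 CPM, and its log2 fold change was -0.53 (SE 0.38, 95% interval -1.36 to 0.30).

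The rest of the family was sparse. Epha10, a second receptor without kinase activity, had 22 to 167 counts in Sirt6-Ctrl and 44 to 102 in Sirt6-KD. Epha1 had 0 counts in S1 and S2, 35 and 36 in S3 and S4, and 34 to 46 in Sirt6-KD. Efna3, a neighbour of Efna1 and Efna4 in the genome, had 100, 5, 18 and 194 counts in S1 to S4 and 11 to 41 in Sirt6-KD. Efna2 had 0, 0, 44 and 46 counts in S1 to S4 and 0 to 12 in Sirt6-KD, and did not pass the filter. Efnb3, a B-class ephrin, did not pass it either: it had 8, 124, 26 and 4 counts in S1 to S4 and 2 to 6 in Sirt6-KD, so that the DESeq2 call (log2 fold change -3.39, DESeq2 adjusted p = 0.016) stood on S2 and S3.

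Inside the cell, Eph receptors and ephrins act through adaptors, guanine exchange factors, kinases, phosphatases and PDZ proteins. Of 56 such partners listed, 52 were tested: 11 were called higher (21.2%, beside 8.02% of all genes) and 1 lower (1.92%, beside 10.7%), and their median log2 fold change was 0.29. In either direction 12 of the 52 were called, beside 18.7% of all genes. By adjusted p alone, without the fold change rule, 14 partners passed as higher and 4 as lower. Of the 13250 genes tested, 1207 passed as higher and 1697 as lower in that way. The partners with the smallest p among those that rose included Rasa1, a Ras GTPase-activating protein that docks on activated Eph receptors, which went from 60.8 ± 10.7 to 129 ± 10.7 CPM (log2 fold change 1.08, SE 0.15, edgeR adjusted p = 0.00249). Pik3r1, the regulatory subunit of phosphoinositide 3-kinase, had a log2 fold change of 1.40 (SE 0.22, edgeR adjusted p = 0.00377). Afdn, a junctional scaffold that binds Eph receptors through a PDZ domain, had one of 1.23 (SE 0.22, edgeR adjusted p = 0.00572).

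Both Abl kinases, which bind Eph receptors and remodel actin, also rose. Abl1 was at 0.891 to 3.89 CPM in Sirt6-Ctrl against 6.93 to 10.2 CPM in Sirt6-KD (log2 fold change 1.93, edgeR adjusted p = 0.0151). Abl2 was at 3.80 to 19.2 CPM and 27.4 to 34.95 CPM (1.78, edgeR adjusted p = 0.0189). Ptpn1, a tyrosine phosphatase of Eph receptors, rose with a log2 fold change of 0.85 (edgeR adjusted p = 0.0133). The 1 partner called lower was Rhog, a small GTPase, at 62.8 to 96.0 CPM in Sirt6-Ctrl against 46.2 to 50.4 CPM in Sirt6-KD (log2 fold change -0.67, edgeR adjusted p = 0.0126). That call was lost without S2, without S1 and S2 together and with library totals alone, and without S3 the number of partners called lower was 3. For the members themselves no protein or phosphorylation was measured here, so these are transcript levels of possible partners. With the spike-in scaling none of the 52 was called, and the number called higher dropped from 11 to 5 without S1, 6 without S5, 4 without S6 and 5 without S7.

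Of 12 proteases and protease subunits that act at the cell surface or within the membrane, 1 was called higher (8.33%, beside 8.02% of all genes) and 1 lower (8.33%, beside 10.7%), shares near those of all genes. Psenen, a subunit of gamma-secretase, which cuts B-class ephrins, fell from 91.6 ± 39.1 to 33.3 ± 4.80 CPM (SD, n = 4), a log2 fold change of -1.46 (SE 0.27, edgeR adjusted p = 0.00693). Adam12, a metalloprotease, was at 11.4 to 107 CPM in Sirt6-Ctrl against 166 to 224 CPM in Sirt6-KD (log2 fold change 1.83, SE 0.59, edgeR adjusted p = 0.0472), a call lost with upper-quartile scaling, with library totals alone, with another filter on low counts, and without S1, S5, S6, S7 or S8. Adam10, the protease best known for shedding A-class ephrins, was at 55.9 ± 24.95 and 68.5 ± 14.5 CPM, with a log2 fold change of 0.29 (SE 0.30, edgeR adjusted p = 0.517).

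**Figure D5:**
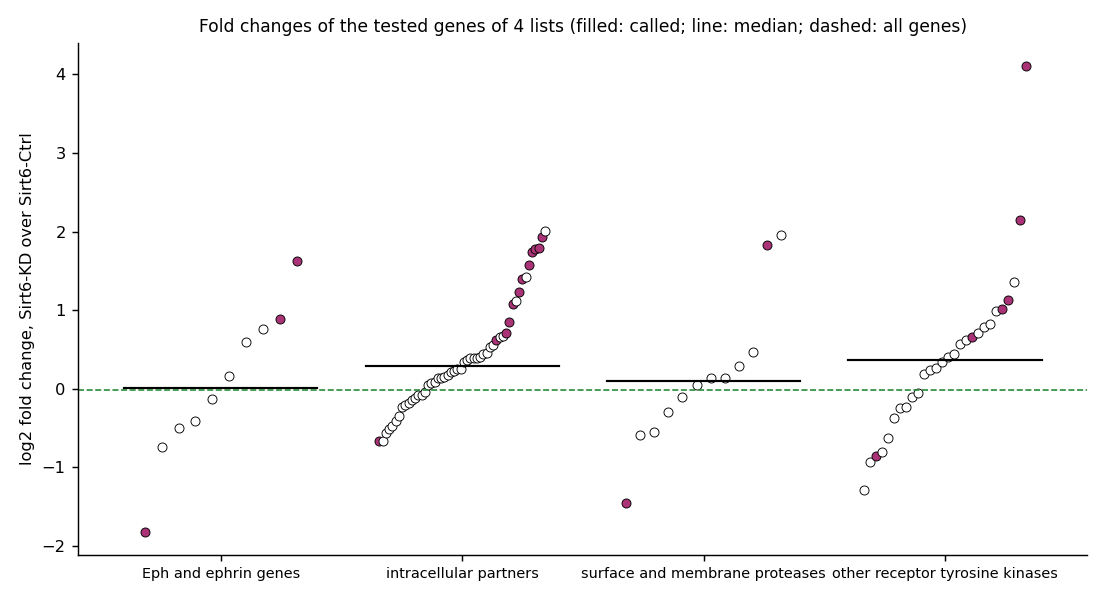
Log2 fold change (Sirt6-KD over Sirt6-Ctrl) of each gene tested in 4 lists: the 10 Eph and ephrin genes, 52 intracellular partners, 12 proteases and 28 other receptor tyrosine kinases. Filled points were called, solid lines are list medians (0.01, 0.29, 0.09 and 0.37) and the dashed line is the median of all genes (-0.02).

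Receptor tyrosine kinases outside the Eph family gave a comparison for Epha2. Of 39 listed, 28 were tested, 5 were called higher (17.9%, beside 8.02% of all genes) and 1 lower (3.57%, beside 10.7%), with a median log2 fold change of 0.37. In either direction 6 of the 28 were called, beside 18.7% of all genes. Axl, the Gas6 receptor, was at 222 to 436 CPM in Sirt6-Ctrl against 715 to 745 CPM in Sirt6-KD (log2 fold change 1.13, edgeR adjusted p = 0.00845). Met, the hepatocyte growth factor receptor, was at 3.87 to 21.0 CPM and 53.7 to 64.9 CPM (2.14, edgeR adjusted p = 0.00885). Epha2 at 1.62 lay between these 2 and, by log2 fold change, above Igf1r (1.02) and Insr (0.65), the other receptors called higher apart from Ret. The number called higher was 3 without S1, 10 without S3 and 2 without S5, S6 or S7. Ret rose from at most 0.177 CPM to 0.681 to 2.12 CPM, and Tyro3, a relative of Axl, fell with a log2 fold change of -0.86 (edgeR adjusted p = 0.0174), a call lost without S5, without S6 and without S1 and S2 together.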

How the data were processed

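The deposited raw count table gives whole read counts per Ensembl gene and spike-in. The submitters' processing notes name Trimmomatic 0.36, STAR 2.5.2b, featureCounts of Subread 1.5.2, DESeq2 and the build Rnor_6.0; annotation and strand setting were not given in the sources used here. A second deposited table of 13612 genes whose counts sum to more than 80 holds, for the same libraries, signal values that the authors made by dividing counts by size factors, together with the authors' log2 fold changes and p-values. Only gene names were taken from it, and the authors' comparison columns were not used.

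Counts, including 92 spike-in rows, were filtered with filterByExpr (13313 rows, 63 of them spike-ins), scaled by TMM and tested with edgeR 4.0.16 in R 4.3.3 (glmQLFit and glmQLFTest, two-sided, Benjamini-Hochberg adjustment over all rows tested). CPM are TMM-normalized, and 3 counts correspond to 0.0727 to 0.0928 CPM, which covers counting error only. DESeq2 1.42.0, limma-voom (limma 3.58.1), other filters and scalings, glmTreat and fits without single libraries were alternatives. The code was tested on simulated data.

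The text names all 10 members, the further family genes with a row, the called genes of each list with the smallest p (at most 6 per direction), Sirt6, the markers, and up to 3 genes most alike for called members with a log2 fold change over 1 in size. 1 gene that this rule names is not reported here. Adam10 falls outside this rule and was chosen after its values were seen. The CRE half-site was likewise added after the Epha2 sequence was seen. The members and lists were chosen with earlier results of these data known. Labels do not say which libraries share a rat, so p-values measure the spread between these libraries. Levels were not compared between genes, as transcript lengths were not used here.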

Additional observations from a re-analysis of the deposited data

Results flagged for a closer look

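In 66 groups of 4 libraries over 33 named genes, 3 held a library whose gap to its nearest neighbour exceeded Dixon's 95% critical value, given as the gap over the range of the group, and chance alone gives about 1 in 20, which is about 3 of 66. For Epha10 in Sirt6-Ctrl, S2 was low at 0.680 CPM against 3.62 to 4.05 CPM in the other libraries (gap over range 0.873). For Efna3 in Sirt6-KD, S8 was high at 1.21 CPM against 0.313 to 0.376 CPM (0.93). For Psenen in Sirt6-KD, S8 was high at 40.4 CPM against 29.7 to 31.5 CPM (0.836), still below every Sirt6-Ctrl library. None of the 10 members had such a library in either group.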

How the results depend on the processing

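Each result was recomputed under 20 alternatives. No paired analysis was run because the labels do not say which Sirt6-Ctrl and Sirt6-KD libraries share a rat. Any pairing by rat was thus left out of the fits. Of the 3 called members, Epha2 kept its call in 19 of the 20, Efnb2 in 13 and Epha4 in 12, and none of the 3 changed direction. 1 of the 20 was the reported fit without the fold change rule, which cannot lose a call. Several others changed only the filter or scaling on the same 8 libraries. In the 8 fits with 1 library left out, Epha2 kept its call in 8, Efnb2 in 4 and Epha4 in 3. With spike-in scaling 20 genes were called higher and 4 lower, members higher 0 and lower 0, partners 0, proteases 0 and other receptor tyrosine kinases 0, and Sirt6 stood at -0.36 (edgeR adjusted p = 0.567, -1.31 relative to the median of all genes). With glmTreat (a null of up to 1.5-fold), 92 genes were called higher and 185 lower, members higher 1 (Epha2) and lower 0, partners 2, proteases 0 and other receptors 1. Without S1 and S2, 709 genes were called lower, members higher 1 (Epha2) and lower 0, and other receptors 3. The protease count was 1 with the filter on summed counts, with upper-quartile scaling and with library totals alone. DESeq2 called 1 further family gene. Leaving out each library in turn gave 445 to 1699 genes higher and 700 to 1913 lower, 1 to 3 members higher and 0 to 1 lower, 5 to 16 partners, 1 to 3 proteases and 2 to 11 other receptors. Log2 fold changes of members not called turned sign for Epha7 (0.46 with spike-in scaling, 0.37 with limma-voom, -0.802 to 0.142 with 1 library left out, 0.14 without S1), Ephb2 (0.024 with spike-in scaling), Efna1 (0.96 with spike-in scaling, -0.284 to 0.006 with 1 library left out, 0.006 without S2, 0.13 without S1 and S2) and Efnb1 (0.59 with spike-in scaling). The cause was not tested, except that fits without libraries have fewer samples. Depth limits Ephb2, Epha4, Efna2 and Efnb3, which had few counts in several libraries.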
